A study of Mus musculus with 25 samples.

Results

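Lrrtm1, Hvcn1 and Tectb are 3 genes with no established role in fat that were singled out among 26394 genes measured in mouse perigonadal white adipose tissue (pgWAT). They were selected on these arrays, for large differences between knockout and wild-type mice or between the mouse lines. Their levels and differences are therefore given as a description, without a test. Tests are given for wash batch and for other genes. The gene lists were chosen with earlier results of these data known, so their counts and p-values are not independent of these arrays. The array carried 6 probes with these gene names, 1 for Lrrtm1, 1 for Hvcn1 and 4 for Tectb, and all were followed. The samples were 25 arrays of pgWAT from male C57BL6/J mice fed a regular diet. All mice were fasted for 24 hours and refed for 18 hours with food and water containing 20% glucose, a regimen that activates the glucose-responsive transcription factor ChREBP, the product of Mlxipl. The groups were ChREBPβ WT (n = 7), ChREBPβ KO (n = 6, lacking the short isoform after Cas9 removal of its own first exon), total ChREBP WT (n = 7) and total ChREBP KO (n = 5, Mlxipl-null mice lacking ChREBPα and ChREBPβ). Both deletions are present in every tissue of the animal, and each knockout was compared with the wild type of its own line. The labels give no age.

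Lrrtm1 encodes a leucine-rich repeat protein of the postsynaptic membrane that binds neurexins across the synapse and helps organise excitatory synapses. Hvcn1 encodes the voltage-gated proton channel Hv1, which lets acid leave the cell and is best known in phagocytes and B cells, where it balances the charge moved by the NADPH oxidase. Tectb encodes β-tectorin, a zona pellucida (ZP) domain glycoprotein of the tectorial membrane of the inner ear. In refed adipose tissue, ChREBP is known for switching on genes of glycolysis and fatty acid synthesis, and none of the 3 genes belongs to these pathways.

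The probes are shown first, because for Tectb the reading depends on which probe was used. Each sequence is written 5′ to 3′, from the array files. The Tectb probe A_66_P115682 is given whole and the first 30 bases are given of the others.
Lrrtm1 A_55_P2019784: agaacttcttcctccctttgaagatctgtc
Hvcn1 A_55_P1960053: aaaggaactgaaatctagagagaaataacc
Tectb A_52_P120813: tctagttcatgctccaatcagtttggaacc
Tectb A_66_P115682: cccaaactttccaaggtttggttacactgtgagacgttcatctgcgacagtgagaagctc
Tectb A_55_P2928827: agaaaggcaggaacatgagccaccgcctgt
Tectb A_55_P2716456: ataccaggcctggagcactctggcagcaaa
No probe of another gene shared a run of 20 bases with any of them, so a common stretch of that length with another target on the array was not present. On the mouse build mm9, the Lrrtm1 probe lay at chr6:77195379-77195438 and the Hvcn1 probe at chr5:122692220-122692279. The Tectb probes lay at chr19:55270559-55270618 (A_52_P120813), chr19:55266006-55266065 (A_66_P115682), chr19:55255258-55255428 (A_55_P2928827, 60 bases placed over a span of 171) and chr19:55264750-55264809 (A_55_P2716456). Exon and untranslated region positions are not given, because no mm9 gene models were used.

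The stretches just before the RefSeq start sites of Lrrtm1 and Tectb are shown because both genes differed widely between groups. They are the 250 bases upstream of the start on the build GRCm38.p6, plus strand in both cases, at chr6:77242227-77242476 and chr19:55180476-55180725.
Lrrtm1 upstream: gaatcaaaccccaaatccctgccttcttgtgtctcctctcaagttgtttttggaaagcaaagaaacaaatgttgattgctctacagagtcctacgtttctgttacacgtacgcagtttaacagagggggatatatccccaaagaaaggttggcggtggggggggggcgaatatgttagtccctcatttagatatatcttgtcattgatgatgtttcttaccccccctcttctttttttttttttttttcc
Tectb upstream: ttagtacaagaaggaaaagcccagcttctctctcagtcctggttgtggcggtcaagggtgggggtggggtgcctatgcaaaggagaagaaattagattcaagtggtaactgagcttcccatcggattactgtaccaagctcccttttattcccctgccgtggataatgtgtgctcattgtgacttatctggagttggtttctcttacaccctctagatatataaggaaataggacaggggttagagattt
ChREBP binds pairs of E-box-like elements, so the E-box letters CACGTG were searched on both strands, and so was TATAAA. Neither was present in the 300-base window of Lrrtm1 or of Tectb, and no letters are in capitals for that reason. Of 32851 RefSeq promoter windows of this length, 7.15% held CACGTG and 13.6% held TATAAA. The absence says only that these letters are not in these windows.

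Raw intensity had medians of 84.0 to 127.0 on the single arrays, with local background at 15.0 to 22.0, and the share of spots well above background was 73.0% to 77.9%. Values are the authors' normalised log2 levels, in which a difference of 1 is a change of 2-fold. Differences come from a linear model (limma) with terms for group and wash batch, fitted to all probes, and are followed by their standard error (SE). Mlxipl was checked first. By its brightest probe the mean level (± SD) was 15.98 ± 0.16 in total ChREBP WT, against 14.21 ± 0.08 in the null mice. In the other line it was 15.07 ± 0.27 for the wild type and 14.34 ± 0.31 for the knockout. In both lines every knockout array lay below every wild-type array, although the fall in ChREBPβ KO (difference -0.74, SE 0.13) had an adjusted p of 0.116. Whether this probe lies in the deleted parts was not determined. Another Mlxipl probe, A_55_P2728555, had differences of -0.47 (SE 0.12) in ChREBPβ KO and -0.66 (SE 0.12) in total ChREBP KO. A further one, A_55_P2045158, had differences of -0.06 and 0.08. The adipocyte markers were high on every array (mean level of the 12 genes 15.6 to 16.0).

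Of 26394 genes, each read by its brightest probe, 2441 (9.25%) differed between total ChREBP KO and WT at an adjusted p under 0.05. Between the wild types of the lines 5815 (22.0%) differed, between the knockouts 4823 (18.3%), and the knockout effects differed from each other for 917 (3.47%). Between ChREBPβ KO and WT 0 genes (0.0%) passed limma's test, 2493 had an unadjusted p under 0.05, and 2 passed when the scanner files were normalised anew. These shares are the background for the counts below.

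Lrrtm1 was higher in total ChREBP KO than in all other groups, and there were no arrays in between. Its level was 9.64, 8.46, 9.46, 8.68 and 9.30 on the 5 total ChREBP KO arrays. On the total ChREBP WT arrays it ran from 6.23 to 6.90 with a median of 6.57, on the ChREBPβ WT arrays from 6.03 to 7.82 with a median of 7.04, and on the ChREBPβ KO arrays from 6.01 to 7.24 with a median of 6.87. The lowest total ChREBP KO array thus lay above the highest of the other 20 arrays, and the other groups overlapped one another throughout. As raw intensity, the probe gave 342.5 to 807.5 in total ChREBP KO and 65.0 to 119.0 in total ChREBP WT, and it was well above background on all arrays.

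In order, the group means of Lrrtm1 (± SD) were 9.11 ± 0.51 for total ChREBP KO (n = 5), 6.99 ± 0.59 for ChREBPβ WT (n = 7), 6.73 ± 0.43 for ChREBPβ KO (n = 6) and 6.56 ± 0.25 for total ChREBP WT (n = 7). Total ChREBP KO exceeded total ChREBP WT by 2.55 (SE 0.27), which is 5.86-fold, and only 2 genes of 26394 had a larger rise in that comparison. The corresponding difference in the ChREBPβ line was -0.27 (SE 0.25). The effect of the total knockout exceeded that of the ChREBPβ knockout by 2.83 (SE 0.36). Total ChREBP KO also exceeded ChREBPβ KO, by 2.40 (SE 0.27), while the wild types of the lines differed by -0.43 (SE 0.24), within the spread of the ChREBPβ WT arrays. Within the 4 wash batches taken singly, the total ChREBP KO minus WT difference was 1.83, 2.63, 2.97 and 3.16. A single batch held very few arrays of each group, so such values are rough for all 3 genes.

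Hvcn1 moved the other way and further. Its level was 10.28, 9.84, 9.84, 10.39 and 9.02 on the total ChREBP KO arrays. On the total ChREBP WT arrays it ran from 12.68 to 13.75 with a median of 13.56. It ran from 12.29 to 13.15 (median 12.55) in ChREBPβ WT and from 12.22 to 13.14 (median 12.56) in ChREBPβ KO. All 5 total ChREBP KO arrays lay below the other 20. The ChREBPβ groups overlapped almost completely, and 6 of 7 total ChREBP WT arrays lay above every ChREBPβ WT array. The exception was total ChREBP WT replicate 2, at 12.68, against 13.39 for the next lowest array of its group.

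The group means of Hvcn1 (± SD) were 13.46 ± 0.36 for total ChREBP WT (n = 7), 12.64 ± 0.35 for ChREBPβ KO (n = 6), 12.62 ± 0.28 for ChREBPβ WT (n = 7) and 9.88 ± 0.54 for total ChREBP KO (n = 5). The total ChREBP KO minus WT difference was -3.62 (SE 0.21), a level 12.3-fold lower, and 8 genes of 26394 fell further. The fall left the probe measurable, with a raw intensity of 417.0 to 1518.5 in total ChREBP KO and 7342.0 to 17146.0 in total ChREBP WT. In the ChREBPβ line the difference was 0.01 (SE 0.20), so the knockout effects differed by -3.63 (SE 0.29). Total ChREBP KO differed from ChREBPβ KO by -2.79 (SE 0.22), and total ChREBP WT was above ChREBPβ WT by 0.84 (SE 0.19). Within the single wash batches, the total ChREBP KO minus WT difference was -3.47, -3.81, -4.55 and -2.84. In whole tissue, fewer cells of a type and less RNA per cell cannot be told apart.

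Tectb differed most between the lines rather than between knockout and wild type. By its brightest probe, A_52_P120813, the 7 total ChREBP WT arrays had levels from 7.44 to 10.43 with a median of 7.90, and the 7 ChREBPβ WT arrays had levels from 5.28 to 7.23 with a median of 5.70. Every total ChREBP WT array lay above every ChREBPβ WT array. The total ChREBP KO arrays had 6.51, 8.56, 7.18, 6.31 and 6.45, and the ChREBPβ KO arrays ran from 5.09 to 6.52 with a median of 5.36. In total ChREBP KO, 4 of 5 arrays lay below all wild-type arrays of the line, and replicate 2 lay among them.

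The order of the Tectb means was total ChREBP WT (8.49 ± 1.16, SD, n = 7), total ChREBP KO (7.0 ± 0.93, SD, n = 5), ChREBPβ WT (6.06 ± 0.78, SD, n = 7) and ChREBPβ KO (5.58 ± 0.52, SD, n = 6). Each neighbouring pair in this order overlapped. The wild types of the lines differed by 2.43 (SE 0.44), or 5.38-fold, and 11 genes of 26394 had a larger difference in that direction. The total ChREBP KO minus WT difference was -1.51 (SE 0.49) and the ChREBPβ KO minus WT difference -0.55 (SE 0.46), and these effects differed by -0.96 (SE 0.67). The knockouts of the lines differed by 1.47 (SE 0.50). Within the wash batches, each with very few arrays of a group, the line difference was 2.28, 2.62, 2.37 and 2.53. The total ChREBP KO minus WT difference was -1.17, -0.72, -1.57 and -2.61.

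**Figure D1:**
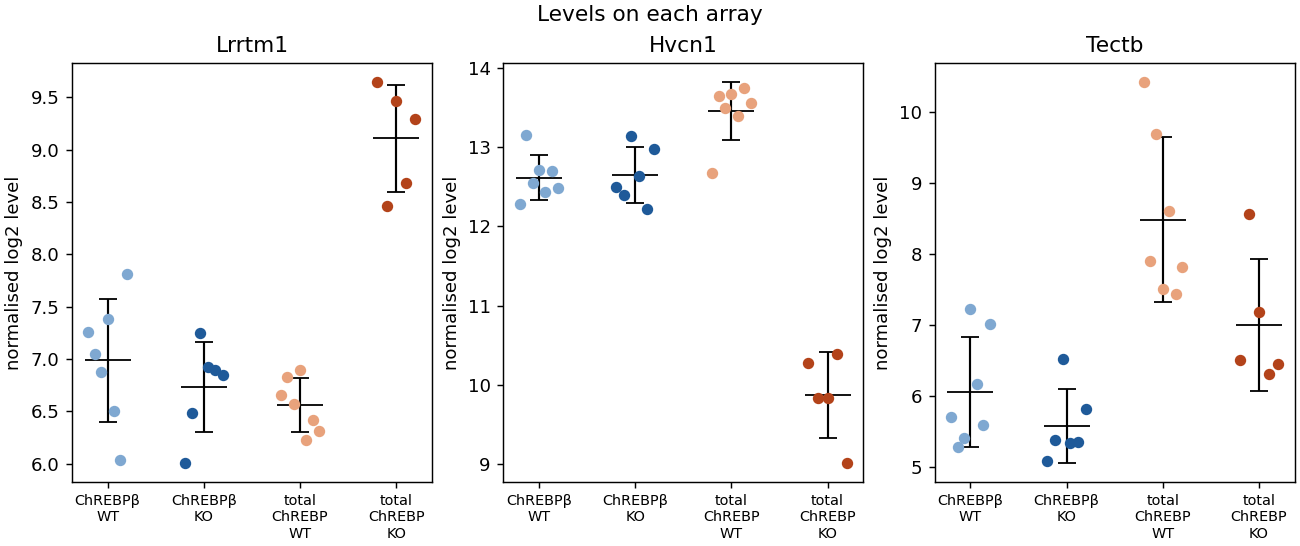
Normalised log2 level (vertical axis) of Lrrtm1, Hvcn1 and Tectb, each by its brightest probe, on every array of the 4 groups; points are arrays, and bars give the mean and SD. Lrrtm1 was 8.46 or higher on total ChREBP KO arrays, Hvcn1 was 10.39 or lower there, and all total ChREBP WT arrays exceeded 7.23 for Tectb, the highest ChREBPβ WT array.

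Tectb was also unusually uneven among arrays of 1 group. Its SD in total ChREBP WT was 1.16, which 1.78% of genes equalled or exceeded, and the median SD of all genes in that group was 0.16. In total ChREBP KO its SD was 0.93, matched by 1.70% of genes. Replicates 2 and 4 of total ChREBP WT had the highest levels, 10.43 and 9.70. The SD of Lrrtm1 in total ChREBP WT was 0.25, matched by 21.4% of genes, and that of Hvcn1 was 0.36, matched by 11.4%. In total ChREBP KO these genes were uneven too, with an SD of 0.51 for Lrrtm1 (matched by 4.43% of genes) and of 0.54 for Hvcn1 (4.14%).

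The Tectb probes did not all show this pattern. A_66_P115682 followed A_52_P120813 array by array (r = 0.99 over 25 arrays), with a line difference of 1.90 (SE 0.34), a total ChREBP KO minus WT difference of -1.13 (SE 0.38) and a ChREBPβ KO minus WT difference of -0.33 (SE 0.36). In the total ChREBP line it was well above background on all 12 arrays, but in the ChREBPβ line on 4 of 7 wild-type and 1 of 6 knockout arrays. A_55_P2928827 was nearly flat, from 4.58 to 5.28 over all arrays, with a line difference of 0.05 (SE 0.08) and a total ChREBP KO minus WT difference of 0.12 (SE 0.08). A_55_P2716456 was absent from the series table and was well above background on 0 of 25 arrays, with a raw intensity of 16.5 to 27.5, so it gave only a bound. The Tectb values therefore rest on 2 of 4 probes.

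**Figure D2:**
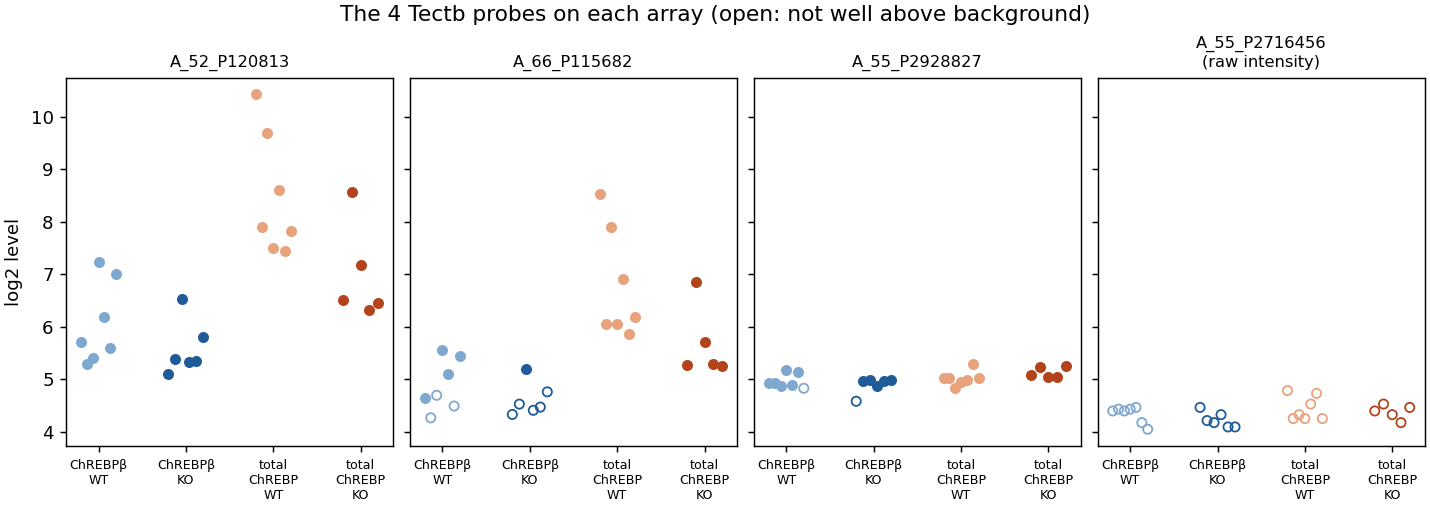
Log2 level (vertical axis) of the 4 Tectb probes on every array, by group; the first 3 panels show normalised values and the last raw intensity, and open circles are spots not well above background. The first 2 probes rise in total ChREBP WT, while the third stays between 4.58 and 5.28 and the fourth is at background on 25 of 25 arrays.

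The genes next to the 3 loci were examined as a measure the choice did not use. Of the genes with a probe within 500 kb, 30 were in the series table, namely 1 beside Lrrtm1, 24 beside Hvcn1 and 5 beside Tectb. In total ChREBP KO versus WT, 3 of 30 differed, all lower, against 9.25% of all genes. Between the wild types 7 of 30 differed (5 higher, 2 lower in total ChREBP WT) against 22.0%, and the knockout effects differed for 3 of 30 against 3.47%. Between ChREBPβ KO and WT 0 of 30 passed, with 4 at an unadjusted p under 0.05.

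RefSeq places Lrrtm1 inside Ctnna2, and Ctnna2, which encodes the neural catenin αN, was the 1 measured neighbour. It had a lower level in total ChREBP KO, with a difference of -0.64 (SE 0.12, adjusted p = 0.000892), while Lrrtm1 was higher there. It had a difference of -0.02 in ChREBPβ KO, and the knockout effects differed by -0.62 (adjusted p = 0.0344), a call made in 17 of 33 alternative settings, while the fall itself was called in 33 of 33. Its dimmer probe, A_51_P438841, had a difference of -0.30 with an adjusted p of 0.599.

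The genes on either side of Hvcn1 had small differences between total ChREBP KO and WT. Tctn1, a ciliary transition zone gene that overlaps the end of Hvcn1 in the RefSeq annotation, had a total ChREBP KO minus WT difference of 0.08 (SE 0.12, adjusted p = 0.799) by its brightest probe and of -0.17 to 0.18 by the others. Ppp1cc, a catalytic subunit of protein phosphatase 1 on the other side, had one of -0.14 (SE 0.05, adjusted p = 0.0665) by its brightest probe and of -0.21 (adjusted p = 0.0457) by A_55_P2077826, and by the first its knockout effects differed by -0.25 (adjusted p = 0.041), called in 12 of 33 settings. Neither came near the -3.62 of Hvcn1. At the edge of the window, Camkk2, a kinase upstream of AMPK, fell by 0.61 (SE 0.10, adjusted p = 0.000239), with no such change in ChREBPβ KO (difference of effects -0.61, adjusted p = 0.0121). P2rx4, an ATP-gated channel, fell by 0.25 (SE 0.06, adjusted p = 0.0178). Between the wild types, P2rx7 (-0.55), P2rx4 (-0.32), Atp2a2 (0.17), Anapc7 (0.17) and Pptc7 (0.17) differed by the brightest probe, and so did the transcript ENSMUST00000071235 (0.23). Tctn1 (-0.10, adjusted p = 0.546) and Ppp1cc (0.11, adjusted p = 0.0692) did not. Of their dimmer probes, A_55_P2761006 of Tctn1 passed (0.26, adjusted p = 0.000736), while its others had 0.05 and -0.02. For Ppp1cc, A_52_P540434 (0.27, adjusted p = 0.00998) and A_55_P2077826 (0.18, adjusted p = 0.0305) passed. Hvcn1 lies 12.9 Mb from Mlxipl on chromosome 5 by the probes' mm9 positions.

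Beside Tectb, the neighbour that differed between the wild types by its brightest probe was Gpam, which encodes the mitochondrial glycerol-3-phosphate acyltransferase of triglyceride synthesis. Gpam was higher in total ChREBP WT by 0.54 (SE 0.14, adjusted p = 0.00841) by its brightest probe and by 1.26 (SE 0.22, adjusted p = 0.000372) by A_52_P11388. Between total ChREBP KO and WT these probes had differences of -0.26 (adjusted p = 0.4) and -0.47 (adjusted p = 0.289). Acsl5, an acyl-CoA synthetase on the other side, had a difference of -0.19 between the wild types (adjusted p = 0.366), and the predicted gene Gm10755, the nearest with a probe, one of 0.15 (adjusted p = 0.222). Vti1a, a vesicle fusion gene farther off, had a line difference of 0.08 (adjusted p = 0.296) by its brightest probe, but 3 of its dimmer probes passed, with 0.26 to 0.32 (adjusted p of 0.0126 to 0.0167).

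**Figure D3:**
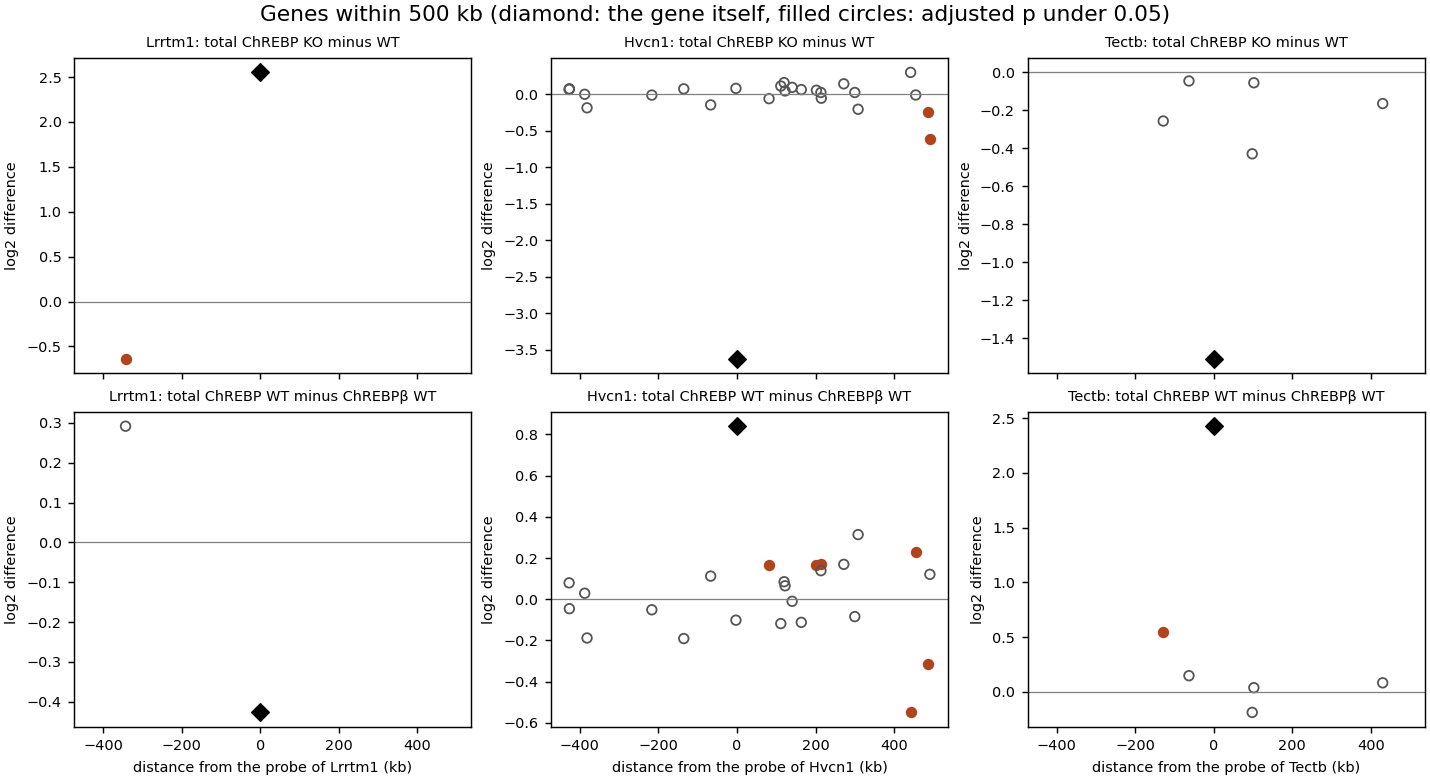
Log2 difference (vertical axis) of each gene within 500 kb against its distance from the probe of Lrrtm1, Hvcn1 or Tectb in kb (horizontal axis), for total ChREBP KO minus WT (top) and total ChREBP WT minus ChREBPβ WT (bottom); diamonds are the 3 genes and filled circles genes with an adjusted p under 0.05. Around Hvcn1, at -3.62, neighbours run from -0.61 to 0.30; the vertical scale differs between panels.

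Genes related to each of the 3 by function or protein domain were taken as lists, and most are not known partners of the gene. For Lrrtm1 the list was synaptic adhesion genes, of which 21 of 26 were in the table. Of these, 3 of 21 rose and 0 fell in total ChREBP KO versus WT, with a median difference of 0.06 against 0.02 for all genes and a share called of 9.25% among all genes. The adhesion gene Lrrc4 (netrin-G ligand 2) rose most, by 1.34 (SE 0.18, adjusted p = 2.57e-05). Its level was 8.13 to 8.36 on the total ChREBP KO arrays and 6.48 to 7.44 on the total ChREBP WT arrays, with no overlap, and the knockout effects differed by 1.27 (adjusted p = 0.00368). Flrt3, another leucine-rich repeat adhesion protein, rose by 0.60 (SE 0.16, adjusted p = 0.0192), and the receptor phosphatase Ptprd by 0.29 (SE 0.08, adjusted p = 0.0305). Of the neurexins, to which Lrrtm1 binds, Nrxn2 had a difference of -0.08 (adjusted p = 0.877) and Nrxn3 one of 0.26 (adjusted p = 0.366). Lrrtm3, the family member in the table, had 0.06 (adjusted p = 0.94). The wild types differed for 1 of 21, Lrrc4c (-0.47, SE 0.16, adjusted p = 0.0417), against 22.0%. Lrrc4 was called in 33 of 33 settings, Flrt3 in 30, Ptprd in 23 and Lrrc4c in 21, and without total ChREBP KO replicate 1 or 3 the count of genes that rose was 1.

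For Hvcn1 the list was NADPH oxidase and proton handling genes, with 22 of 24 in the table. Of these, 2 of 22 rose and 0 fell in total ChREBP KO versus WT, near the 9.25% called among all genes, with a median difference of 0.01. Of the oxidase subunits that Hv1 serves in phagocytes, differences were -0.11 for Cybb, -0.11 for Cyba, -0.17 for Ncf1 and -0.02 for Ncf4, with adjusted p-values of 0.631 to 0.976. The genes that rose were Slc4a4, an electrogenic sodium bicarbonate cotransporter, by 0.89 (SE 0.24, adjusted p = 0.019), and Noxa1, an oxidase activator, by 0.23 (SE 0.07, adjusted p = 0.0367). Slc4a4 ran from 10.53 to 11.03 in total ChREBP KO and from 9.58 to 10.20 in total ChREBP WT, and the knockout effects differed by 1.48 (adjusted p = 0.01). The wild types differed for 2 of 22, against 22.0% of all genes. These were Duox1 (-0.89, SE 0.22, adjusted p = 0.00563) and Ncf4 (-0.43, SE 0.15, adjusted p = 0.049). Duox1 was called in 33 of 33 settings, Slc4a4 in 31, Noxa1 in 24 of 32 and Ncf4 in 12 of 33, and with the replicate number as a block 0 of 22 passed in total ChREBP KO.

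For Tectb the list was tectorial membrane and ZP domain genes, and 9 of 18 were in the table. Tecta, its main partner in the tectorial membrane, was among those that were not. Between total ChREBP KO and WT 0 of 9 passed the test, against 9.25% of all genes, 0 at an unadjusted p under 0.05, and the median difference was -0.01. Between the wild types 1 of 9 differed, against 22.0% of all genes. It was Oit3, a ZP domain gene of liver, which was lower in total ChREBP WT (-1.69, SE 0.40, adjusted p = 0.00445). The line differences of the 9 ran from -1.69 to 2.99. The highest was that of Cuzd1, a ZP domain gene of the pancreas, which pointed the same way as Tectb with a wide error (SE 1.23, adjusted p = 0.0868), and its total ChREBP KO minus WT difference of -1.97 (SE 1.35, adjusted p = 0.476) was the lowest of the list. The tectorial membrane genes Ceacam16, Otog and Col11a2 had line differences of -0.24, -0.03 and 0.04. In all 3 lists 0 genes differed between ChREBPβ KO and WT, with 2, 2 and 1 at an unadjusted p under 0.05.

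**Figure D4:**
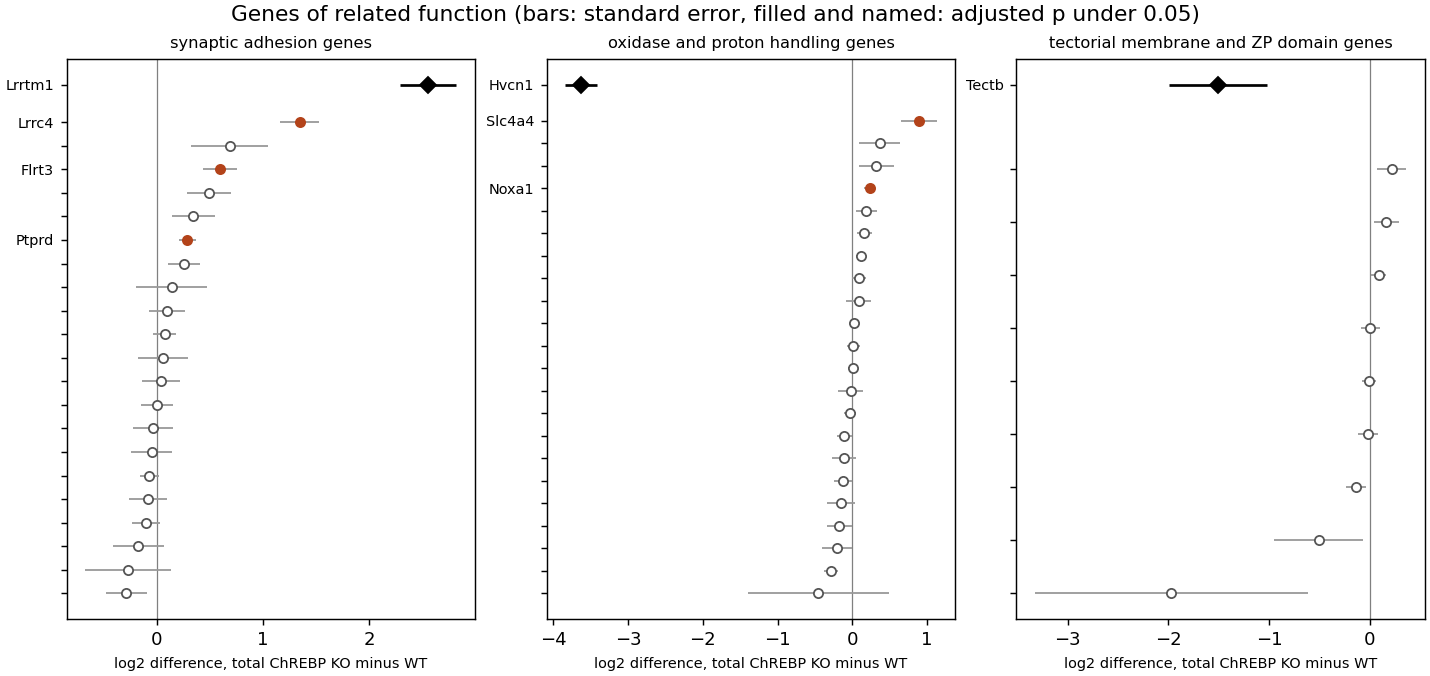
Log2 difference between total ChREBP KO and WT (horizontal axis) for synaptic adhesion, oxidase and proton handling, and tectorial membrane and ZP domain genes, with Lrrtm1, Hvcn1 and Tectb as diamonds; bars are the SE, and filled circles are the genes with an adjusted p under 0.05, which are named. The nearest list gene to Lrrtm1 (2.55) was Lrrc4 (1.34), and the lowest oxidase or proton handling gene was at -0.46, beside Hvcn1 at -3.62.

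The likeness of each gene to all others was described by Pearson's r over the 25 arrays, which share the groups, and by r over residuals, from which group and wash batch were removed. Among the genes most like Hvcn1 were Oscp1 (r = 0.98, residual r = 0.73), Bmyc, a relative of Myc (0.97), and Atp4b, the β subunit of the gastric proton pump (0.97). Like Hvcn1, these 3 were lower in total ChREBP KO than WT, with differences of -2.58 (Bmyc) to -3.33 (Oscp1) there and of -0.23 to -0.14 in ChREBPβ KO. Their r over 25 arrays span the gap between total ChREBP KO and the other arrays, and their residual r were 0.53 to 0.73. Oscp1 and Hvcn1 also went together inside groups, with r of 0.53 in ChREBPβ WT (n = 7), 0.96 in ChREBPβ KO (n = 6) and 0.84 in total ChREBP WT (n = 7). Total ChREBP WT replicate 2, the low array for Hvcn1, was also the lowest of its group for Oscp1, at 13.14. The most opposed patterns were those of Nnmt and Agfg2 (r = -0.91 for both), and the highest residual r were those of BY593506 (0.86), Tubb5 (0.83) and Acot2 (0.82).

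Lrrtm1 was most like Gstz1, an enzyme of tyrosine breakdown (r = 0.93), Nnmt, the nicotinamide N-methyltransferase (0.92), Slc2a13, a myo-inositol transporter (0.92), Alas1, the first enzyme of heme synthesis (0.92), and Cd320, the transcobalamin receptor (0.92). Their total ChREBP KO minus WT differences ran from 0.69 (Cd320) to 1.95 (Slc2a13). These r rest mainly on the gap between total ChREBP KO and the other arrays, since the residual r were 0.45 to 0.68. The opposite pattern was held by Rassf3 and Ptges, a prostaglandin E synthase (r = -0.91 for both). By residual r, the leaders were 9130023H24Rik (0.87), Gm16118 (0.84) and Gm8801 (0.83).

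Tectb had its own neighbour Gpam among its nearest patterns. The Gpam probe A_52_P11388 had r = 0.94 with Tectb and a residual r of 0.85, and the brighter Gpam probe had 0.92 and 0.84. Inside groups, r of Tectb with A_52_P11388 was 0.75 in ChREBPβ WT (n = 7), 0.81 in ChREBPβ KO (n = 6) and 0.94 in total ChREBP WT (n = 7). Replicates 2 and 4 of total ChREBP WT had Gpam levels of 11.31 and 11.42, while the other 5 ran from 10.15 to 10.52. Without replicate 2 the r was 0.93. The other neighbour Acsl5 had r = 0.08 with Tectb over all arrays, but 0.88 inside total ChREBP WT, 0.72 inside ChREBPβ KO, 0.70 inside total ChREBP KO (n = 5) and -0.14 inside ChREBPβ WT. The other genes like Tectb were 2210022D18Rik (0.95), Xrcc6, the DNA repair protein Ku70 (0.94), Pgls, an enzyme of the pentose phosphate pathway (0.93), and LOC102641427 (0.91). The opposite pattern was held by Fam149a (r = -0.96) and Paqr7, a membrane progestin receptor (r = -0.94). By residual r, ENSMUST00000121348 (0.87) and Pgls (0.86) came before Gpam.

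**Figure D5:**
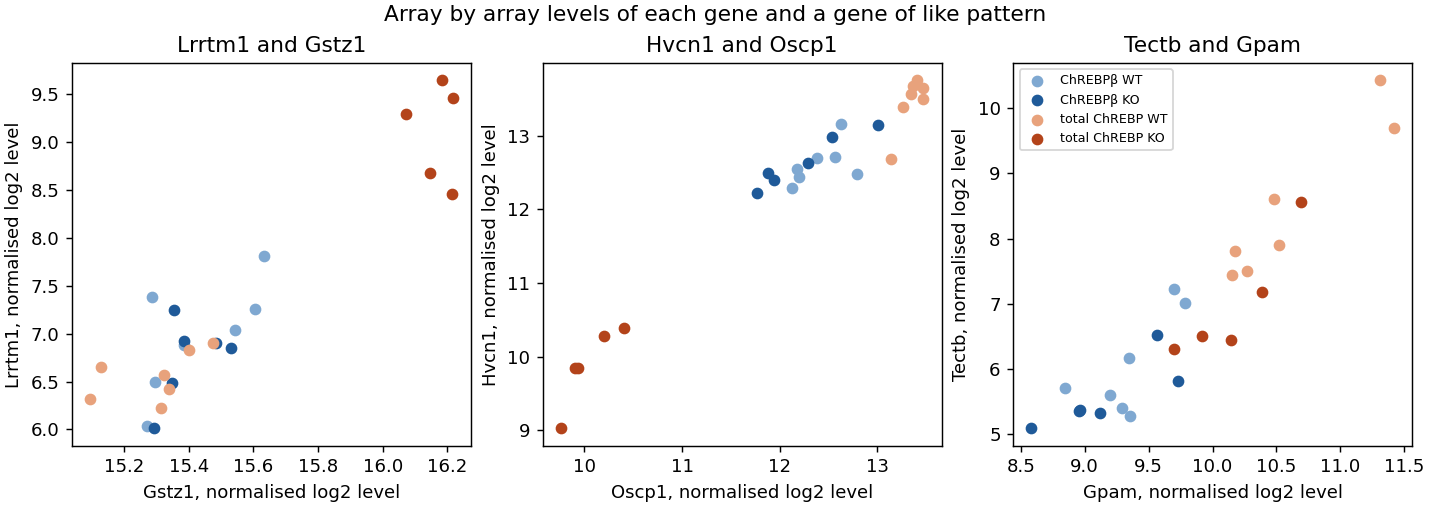
Normalised log2 level of each gene (vertical axis) against that of a gene with a like pattern (horizontal axis), 1 point per array, coloured by group; Gpam is shown by its probe A_52_P11388. For both Lrrtm1 and Hvcn1 the total ChREBP KO arrays stand apart from the others, with Hvcn1 at 10.39 or lower there and at 12.22 or higher elsewhere. The r of 0.98 between Hvcn1 and Oscp1 spans that gap (residual r = 0.73). Tectb follows Gpam through all 4 groups (r = 0.94).

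Among themselves, the 3 genes shared little beyond the total knockout. Lrrtm1 and Hvcn1 had r = -0.87 over all arrays and a residual r of 0.04. Tectb had r = 0.01 with Lrrtm1 and 0.11 with Hvcn1, and residual r of 0.14 and -0.36. Inside total ChREBP WT, Tectb and Hvcn1 had r = -0.86 (n = 7), and inside ChREBPβ KO 0.84 (n = 6).

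Wash batch, a measure outside the choice, was tested by a moderated F over its 3 coefficients. The adjusted p was 0.862 for Lrrtm1, 0.761 for Hvcn1 and 0.716 for Tectb, and 1.49% of genes passed that test.

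Markers of other cells and tissues were read on the same arrays, since Hvcn1 is known from leukocytes and Lrrtm1 from neurons. In total ChREBP KO versus WT 0 of 11 B cell, 0 of 14 macrophage and 0 of 11 granulocyte markers passed, against 9.25% of all genes. An unadjusted p under 0.05 was held by 1, 4 and 3 of them, and by 5536 of all 26394 genes. The summed B cell marker level ran from 13.1 to 13.3 in both total ChREBP groups, the macrophage level from 17.1 to 17.6 in total ChREBP WT and 17.0 to 17.5 in total ChREBP KO, and the granulocyte level from 15.8 to 16.1 and 16.0 to 16.3. Of 16 neuron and glia markers, 1 rose and 1 fell, against 9.25% of all genes. Nefm, a neurofilament gene, rose by 0.48 and Th, the tyrosine hydroxylase gene of sympathetic nerves, had a lower level (difference -0.87, SE 0.09). The summed levels were 14.5 to 14.7 in total ChREBP WT and 14.5 to 14.8 in total ChREBP KO. Of the 12 adipocyte markers, 4 rose and 1 fell, against 9.25% of all genes. Lpl, the lipoprotein lipase gene, rose by 0.58 (SE 0.07) and Plin1, of the lipid droplet coat, by 0.43 (SE 0.09), while Slc2a4, the insulin-responsive glucose transporter, fell by 1.40 (SE 0.13). Their summed level was 20.5 to 20.7 in total ChREBP WT and 20.8 to 20.9 in total ChREBP KO, and its part in the values of the 3 genes was not tested. Over residuals, the mean level of the granulocyte list had r = 0.55 with Lrrtm1, and its part in the Lrrtm1 values was not tested.

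Liver genes separated the lines, as Tectb did, but in the other direction. Of 10 liver markers, 9 were lower in the wild type of the total line than in ChREBPβ WT, with a median difference of -4.74, against 22.0% of all genes called. Their summed level ran from 18.3 to 20.4 in ChREBPβ WT, 17.1 to 20.0 in ChREBPβ KO, 16.7 to 18.5 in total ChREBP WT and 18.0 to 18.2 in total ChREBP KO. Between total ChREBP KO and WT the median difference of the 10 was -2.01. There 1 marker was called higher, Cyp2e1 (0.95), and 1 lower, Fgb (difference -3.89), against 9.25% of all genes. An unadjusted p under 0.05 was held by 8 of 10, and by 5536 of all 26394 genes. The summed level of total ChREBP KO lay inside the range of total ChREBP WT, but a sum is weighted to the brightest genes of the list. The mean level of the 10 was 8.05 to 9.01 in total ChREBP KO and 8.22 to 13.58 in total ChREBP WT. The residual r of the liver list mean was 0.45 with Tectb, -0.06 with Lrrtm1 and -0.01 with Hvcn1. With that mean as a covariate the Tectb line difference was 3.63 in place of 2.43, the total ChREBP KO minus WT difference -0.96 in place of -1.51 and the ChREBPβ KO minus WT difference -0.23 in place of -0.55. The liver mean itself separated most arrays of the lines, at 12.9 to 16.3 in ChREBPβ WT and 8.22 to 13.58 in total ChREBP WT. The covariate therefore cannot separate line from liver level, and 3.63 is not a line difference freed of liver genes. Total ChREBP WT replicate 2, the highest array for Tectb, had the highest liver mean of its group, 13.58, and the highest epididymis and testis mean, 9.71, against 6.12 to 7.74 for the others. Of the 10 epididymis and testis markers, Adam7 and Spag11b differed between the wild types, both higher in total ChREBP WT. Of 8 kidney markers 4 were lower there, and the share among all genes was 22.0%. The part of these tissues in the Tectb values was not tested.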

How the data were processed

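RNA of 25 pgWAT samples was labelled with Cy3 by the authors and hybridised to 1-colour Agilent arrays, which were measured with Agilent Feature Extraction 10.10.1.1 per the labels. The deposited series table holds the authors' log2 values of 40561 probes, after a filter on spot flags and quantile normalisation, and was used as given, with 23 empty cells; its columns followed the log2 median intensity of each array (lowest r 0.9998). The deposited scanner files hold spot intensity (59305 spots), used for the probe outside the table, for background flags and for alternatives. Replicates are separate samples by their titles. Nothing in the labels ties each to its own animal, so p-values measure the spread between these samples. The members and all gene lists were chosen with earlier results of these data known.

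Group and wash batch were fitted for all arrays together in limma 3.58.1 (R 4.3.3), with moderated statistics (lmFit, contrasts.fit and eBayes) on 18 residual degrees of freedom. The fit was checked on simulated data. Adjusted p-values are Benjamini-Hochberg over all probes, and a probe was called under 0.05. A gene was read by its brightest table probe. The 4 wash batches held all 4 groups. The arrays lay on 15 slides, scanned on 2 days, and each wash batch was scanned on 1 day. The number of arrays limits the precision.

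Named genes were, per member, the 5 highest and 2 lowest r and 3 highest residual r, the nearest neighbours and those called (at most 6), called genes of related lists (at most 6) and up to 3 per marker list. Nrxn2, Nrxn3, Lrrtm3, oxidase subunits, tectorial membrane genes, Cuzd1, Acsl5, Vti1a and further Hvcn1 neighbours were added after their values were seen, and some genes that the rule names are not reported here. Gene names came from RefSeq (GRCm38.p6) where accession or symbol matched (43738 of 56605 probes). Alternatives were other normalisations of the scanner files, no wash batch term, replicate number or slide as a block, array weights, a filter on dim probes, other probes, other windows, a liver covariate (chosen after seeing the data) and leaving out each array.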

Additional observations from a re-analysis of the deposited data

Results flagged for a closer look

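Within groups, 20 sets of levels (5 probes in 4 groups) were checked for an array far from the rest, and 4 held one, where chance gives about 1 in 20. Hvcn1 was low on total ChREBP WT replicate 2 (12.68, next 13.39). The Tectb probe A_66_P115682 was high on total ChREBP KO replicate 2 (6.85, next 5.70). The other responsive Tectb probe was also highest on that array (8.56, next 7.18) but was not flagged. The flat Tectb probe A_55_P2928827 was low on ChREBPβ KO replicate 2 (4.58, next 4.87) and high on total ChREBP WT replicate 7 (5.28, next 5.02).

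The effect of the total knockout differed from that of the ChREBPβ knockout, by limma's adjusted p, for 10 of 174 neighbouring, related or marker genes (5.75%), against 3.47% of all genes. The differences between the effects were 1.48 for Slc4a4, 1.43 for Cyp2e1, 1.27 for Lrrc4, 0.44 for both Lpl and Cebpa, -0.25 for Ppp1cc, -0.61 for Camkk2, -0.62 for Ctnna2, -0.72 for Th and -1.29 for Slc2a4, the insulin-responsive glucose transporter of fat.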

How the results depend on the processing

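The Lrrtm1 and Hvcn1 differences kept their direction in total ChREBP KO under all alternatives run, and without single arrays ran from 2.43 to 2.70 and from -3.79 to -3.40. Without single arrays the Tectb line difference ran from 2.11 to 2.66 and its total ChREBP KO minus WT difference from -1.84 to -1.22. The Tectb values depended on the probe: A_55_P2928827 gave 0.12 in total ChREBP KO minus WT, 0.051 between the wild types, 0.19 for the difference of effects and 0.24 between the knockouts, and A_55_P2716456 as raw log2 intensity gave -0.069, 0.11, 0.038 and 0.15, so the difference of effects changed sign with both and the total ChREBP KO minus WT difference with the first. Both of these probes had raw intensities close to background. The mean of the table probes gave 1.46 between the wild types, and the liver covariate, chosen after seeing the data, gave 3.63 there, 2.90 between the knockouts, -0.96 in total ChREBP KO minus WT and -0.23 in ChREBPβ KO minus WT. Genes called in ChREBPβ KO numbered 2 with either renormalisation of the scanner files (plain quantile or normexp) and 37 with array weights, and 0 to 66 without single arrays (66 without ChREBPβ KO replicate 4, 1 without total ChREBP WT replicate 2 or total ChREBP KO replicate 7). With the liver covariate 2057 genes differed between the wild types and 1869 between the knockouts. The liver mean itself differed between the lines, so values with this covariate cannot separate line from liver level. The difference of effects was called for 522 genes with the replicate block and 1493 with array weights. Replicate numbers share only a number: over 29 same-numbered pairs the median r of deviations was -0.08, so the replicate block is no pairing. Neighbours called in total ChREBP KO numbered 5 with array weights, 0 within 200 kb and 8 within 1 Mb. They numbered 2 and 16 between the wild types in these windows. For the difference of effects they numbered 1 and 6, 0 with the replicate block, and 1 to 3 without single arrays, with 1 for 12 of the arrays. The number of genes in the 200 kb and 1 Mb windows is not given here. The counts in these windows therefore cannot be set against the shares of all genes. Synaptic adhesion genes called between the wild types numbered 2 with the 75th percentile scaling or the replicate block, 4 with array weights and 0 to 3 without single arrays. They numbered 1 to 3 in total ChREBP KO and 1 to 2 for the difference of effects (2 without total ChREBP WT replicate 2) without single arrays. Oxidase and proton handling genes called in total ChREBP KO numbered 1 with plain quantile scaling, 0 with the replicate block and 0 to 3 without single arrays. They numbered, between the wild types, 5 with the 75th percentile scaling or array weights, 1 with normexp or no wash batch term, and 1 to 4 without single arrays; for the difference of effects 0 with the replicate block. Tectorial membrane and ZP genes called between the wild types numbered 2 with the replicate block, 3 with array weights and 1 to 2 without single arrays, and for the difference of effects 0 to 1 (1 without ChREBPβ KO replicate 4). Causes were not tested. In all, 1143 values stayed within the spread or within 1.5 times the count, 93 moved and 3 reversed. Signal over background limits Tectb in the ChREBPβ line.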
